A study of Homo sapiens with 2 samples.

Results

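The 4 human HOX clusters, HOXA on chromosome 7, HOXB on chromosome 17, HOXC on chromosome 12 and HOXD on chromosome 2, were searched for ChIP-seq peaks of the tagged transcription factors Cdx1 and Cdx2. A peak belonged to a cluster when its summit, the base with the most overlapping DNA fragments, lay in a fixed window that held the cluster and about 50 kb on each side. These windows were chr7:27082000-27301000 for HOXA, chr17:46556000-46857000 for HOXB, chr12:54282000-54500000 for HOXC and chr2:176907000-177106000 for HOXD, all in build GRCh37. The windows were drawn by position and not by measured values, although earlier results of these data were known when they were chosen. The windows held 221 of 415628 called peaks, 108 of 196910 in the FLAG-wt-Cdx1 list and 113 of 218718 in the FLAG-wt-Cdx2 list.

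The peaks came from chromatin immunoprecipitation followed by sequencing (ChIP-seq) in DLD1-TetOff cells, which are DLD1 human colon cancer cells carrying a tetracycline transactivator that drives the introduced gene when doxycycline (DOX) is absent. One group expressed FLAG-wt-Cdx1 and the other FLAG-wt-Cdx2, mouse proteins made from an inducible plasmid in transfected clones, for 20 h after withdrawal of 0.5 µg/mL DOX. For each, cells of 10 dishes were pooled, fixed in 1% formaldehyde for 5 min, treated with micrococcal nuclease for 50 min and subjected to FLAG immunoprecipitation on M2 antibody beads. The sample descriptions also speak of cells kept in DOX that do not make the tagged protein, whereas the protocols state withdrawal for both samples. Each factor had 1 library, no control library entered the peak calling, and there were no replicates, so no test between the factors was possible. Intervals of counts, densities, shares, ratios and heights given here cover counting error only. Intervals of medians cover the spread among the peaks of a window in 1 library.

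HOX genes encode homeodomain transcription factors that set position along the body axis, and they lie in each cluster in the order in which they act from head to tail. CDX1 and CDX2 are homeodomain factors of the hindgut and the intestinal epithelium, and are known as upstream regulators of HOX genes in the embryo. Both recognise an AT-rich core that contains TTTAT, or ATAAA on the opposite strand.

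Promoters of HOX genes were read for this core to show what it looks like at these genes. Among the 38 HOX genes of the clusters considered, 20 matched an entry of the RefSeq promoter table in build GRCh38.p14, which gave 27 promoters, 26 of them distinct because HOXC4 and HOXC5 share one. HOXA5, HOXB2, HOXB3, HOXB4, HOXB5, HOXB6, HOXB7, HOXB8, HOXB9, HOXB13, HOXC6, HOXC8, HOXC9, HOXC10, HOXC11, HOXC12, HOXC13 and HOXD9 did not match. In the 250 bases before the start, 14 of the 27 promoters, or 51.9% (Wilson 95% interval 34.0 to 69.3), held TTTAT or ATAAA, against 32.7% of all 35116 promoters in the table. The promoter shared by HOXC4 and HOXC5 held the core and counts under both names in the 14, the 27 and the interval. The promoters of 1 gene are also not independent, and HOXA3, an anterior gene of its cluster, gave 5 of the 14. The interval treats all 27 as independent and so cannot show an excess over the promoters of the table. HOXA3 had several promoters in the table, and the one with the most matches lay between those of HOXA6 and HOXA7. The other genes with a match were HOXA2, HOXA9, HOXA10, HOXC4, HOXC5, HOXD4, HOXD8 and HOXD13, 9 genes in all. Of the 25 matches, which count those of the promoter of HOXC4 and HOXC5 under both names, 4 overlapped TATAAA, the core of a TATA box. A match is a description of letters and not a measured binding site. The 4 sequences that follow run 5′ to 3′ on the strand of the gene, with the motif in capitals. They are the HOXA3 promoter with the most matches (chr7:27152584-27152833, minus strand), the promoter of HOXC4 and HOXC5 (chr12:54016638-54016887, plus strand), that of HOXD4 (chr2:176151300-176151549, plus strand) and that of HOXD13, the most posterior HOXD gene (chr2:176092471-176092720, plus strand), where the 2 matches overlap each other and a TATA box.
HOXA3: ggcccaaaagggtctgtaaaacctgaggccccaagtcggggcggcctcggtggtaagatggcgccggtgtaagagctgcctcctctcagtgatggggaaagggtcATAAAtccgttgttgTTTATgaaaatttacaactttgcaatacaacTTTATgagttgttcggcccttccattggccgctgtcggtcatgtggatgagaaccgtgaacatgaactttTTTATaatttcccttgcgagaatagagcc
HOXC4 and HOXC5: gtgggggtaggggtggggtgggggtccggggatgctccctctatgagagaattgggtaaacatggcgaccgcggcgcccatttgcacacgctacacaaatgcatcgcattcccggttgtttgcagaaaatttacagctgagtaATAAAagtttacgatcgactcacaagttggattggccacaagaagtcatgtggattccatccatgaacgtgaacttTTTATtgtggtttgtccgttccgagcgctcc
HOXD4: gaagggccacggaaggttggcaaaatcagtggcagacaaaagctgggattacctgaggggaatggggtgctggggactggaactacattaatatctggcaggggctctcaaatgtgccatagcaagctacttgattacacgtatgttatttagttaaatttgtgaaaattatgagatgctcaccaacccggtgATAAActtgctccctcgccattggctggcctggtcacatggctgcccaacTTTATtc
HOXD13: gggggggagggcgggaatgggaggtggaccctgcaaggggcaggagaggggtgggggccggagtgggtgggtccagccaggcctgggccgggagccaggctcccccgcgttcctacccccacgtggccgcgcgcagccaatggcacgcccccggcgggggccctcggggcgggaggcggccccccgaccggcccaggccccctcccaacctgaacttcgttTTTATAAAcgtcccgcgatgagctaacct
These promoter positions are in another build than the peaks and cannot be set against them. Which HOX gene, exon or intron a summit lies in was not determined, and the peaks are given by position.

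Peaks were denser in the HOXA and HOXB windows than over the rest of their chromosomes in both lists, whereas in the whole HOXD window the density was within counting error of its chromosome. In HOXA, 28 wt-Cdx1 and 35 wt-Cdx2 summits gave 12.8 (8.50 to 18.5) and 16.0 (11.1 to 22.2) peaks per 100 kb, against 6.62 and 7.78 on the rest of chromosome 7. The ratio was 1.93 (exact 95% interval 1.28 to 2.79) for wt-Cdx1 and 2.05 (1.43 to 2.86) for wt-Cdx2, and with only peaks of −log10 q-value at least 5 it was 3.22 (1.84 to 5.23) for wt-Cdx2. HOXB held 32 and 37 summits, 10.6 (7.27 to 15.0) and 12.3 (8.65 to 16.9) per 100 kb, which was 1.79 (1.22 to 2.53) and 1.61 (1.13 to 2.22) times the rest of chromosome 17. Both clusters were therefore above their chromosome by more than the counting error in each library.

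In HOXC the libraries gave different counts. The 32 wt-Cdx1 summits gave 14.7 (10.0 to 20.7) peaks per 100 kb, 2.03 (1.38 to 2.86) times the rest of chromosome 12. The 23 wt-Cdx2 summits gave 10.6 (6.69 to 15.8), 1.31 (0.830 to 1.97) times, an interval that includes 1. For wt-Cdx2 in HOXC the choice of window and peaks mattered, since the ratio was 2.10 (1.28 to 3.25) with windows shortened by 50 kb on each side and 2.60 (1.38 to 4.45) with only peaks of −log10 q-value at least 5, for which wt-Cdx1 had 2.34 (1.41 to 3.66). The ratio of wt-Cdx1 to wt-Cdx2 peaks in HOXC, relative to that on the rest of the chromosome, was 1.55 with an interval of 0.877 to 2.77, so the factors could not be told apart there at this number of peaks. The same relative ratio was 0.940 (0.551 to 1.59) in HOXA, 1.11 (0.671 to 1.84) in HOXB and 0.980 (0.467 to 2.04) in HOXD. With only peaks of −log10 q-value at least 5 its direction turned in 3 clusters, to 0.900 (0.422 to 1.98) in HOXC, 0.928 (0.451 to 1.95) in HOXB and 1.49 (0.478 to 5.48) in HOXD, and it was 0.737 (0.355 to 1.54) in HOXA. HOXD itself held 16 and 18 summits, 8.04 (4.60 to 13.1) and 9.05 (5.36 to 14.3) per 100 kb, at 1.01 (0.580 to 1.65) and 1.04 (0.614 to 1.64) times the rest of chromosome 2. With the window shortened by 50 kb on each side these ratios were 1.53 (0.790 to 2.67) and 1.39 (0.717 to 2.43), still with intervals that include 1.

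Each chromosome was also laid out in stretches of the window's own length, leaving out those with no summit in either list. The HOXA window held more wt-Cdx1 summits than 698 of 710 such stretches and more wt-Cdx2 summits than 708. HOXB exceeded 254 and 251 of 260. HOXC exceeded 599 of 600 for wt-Cdx1 and 479 of 600 for wt-Cdx2, and HOXD only 628 and 592 of 1196. Among the windows, HOXD thus sat in the middle of its chromosome.

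**Figure D1:**
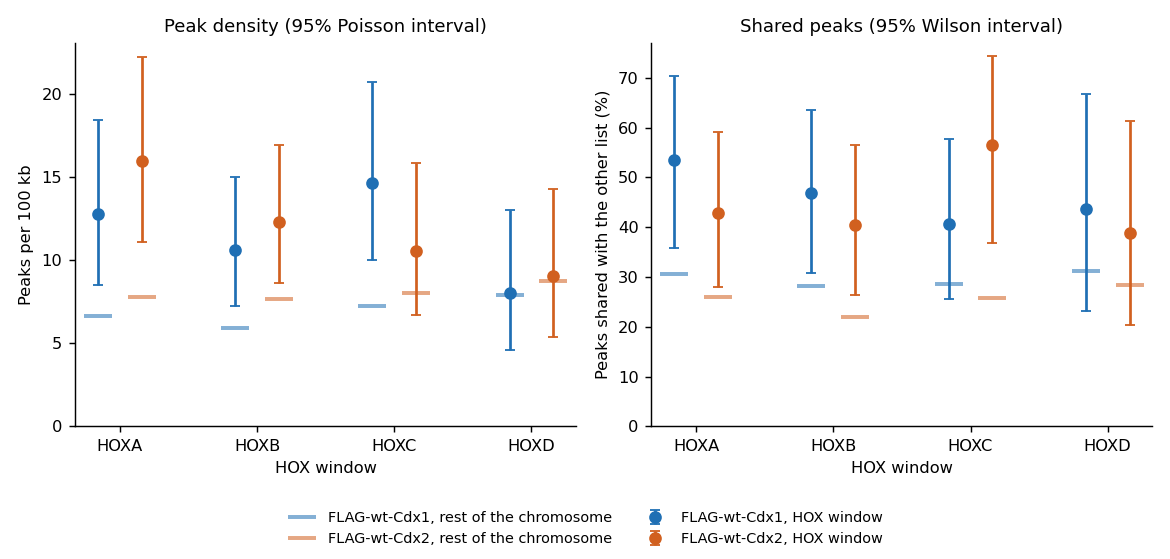
Peak density in peaks per 100 kb (left) and the percentage of peaks with a summit of the other list within 100 bp (right) in each HOX window; points are the windows with 95% intervals (Poisson left, Wilson right, counting error only), horizontal dashes the rest of the same chromosome, blue wt-Cdx1 and orange wt-Cdx2. Density in the HOXD window lies near its chromosome's dash in both lists, and the shared percentage lies above the dash in every window, between 38.9% and 56.5%.

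Within the windows, summits gathered in the inner part, the window without its outer 50 kb on each side, which is about where the HOX genes lie. The inner HOXA part held 17 wt-Cdx1 and 22 wt-Cdx2 summits, and the corresponding numbers were 25 and 30 in HOXB, 19 and 20 in HOXC, and 12 and 12 in HOXD. Inner density was above outer density in all 8 cases, but the interval of the ratio excluded 1 in 1 of them only, wt-Cdx2 in HOXC, where 20 inner and 3 outer summits gave a ratio of 5.65 (1.68 to 29.7). For wt-Cdx1 in HOXC, 13 summits lay in the outer part and the ratio was 1.24 (0.580 to 2.73). The inner counts of the libraries in HOXC differed by 1, and their outer counts by 10.

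The longest distance between neighbouring summits in HOXC, not counting the stretches from the outermost summits to the window edges, was 47608 bp in the wt-Cdx2 list, from 54293269 to 54340877, and 23665 bp in the wt-Cdx1 list, from 54300425 to 54324090. In HOXA these gaps were 31725 bp (27215782 to 27247507) for wt-Cdx1 and 27067 bp (27263532 to 27290599) for wt-Cdx2. HOXB had 34675 bp (46738832 to 46773507) and 27573 bp (46559775 to 46587348), and HOXD 40798 bp (177023304 to 177064102) and 30394 bp (176928785 to 176959179). Except in HOXC the longest gaps of the libraries did not overlap. The median distance between neighbouring summits was 5616 bp for wt-Cdx1 and 4617 bp for wt-Cdx2 in HOXA, against 9502 and 8418 bp on the rest of chromosome 7, while in HOXD it was 7142 and 7705 bp, against 8129 and 7904 bp on the rest of chromosome 2. Counted in bins of 10 kb, the fullest bins of both lists together held 7 summits in HOXA, where 2 bins tied, and 5 in HOXC, where 4 bins tied. In HOXB and HOXD 1 bin was the fullest, with 7 summits from 46676000 to 46685999 and 6 from 176997000 to 177006999, both in the inner part. The next HOXB bin, from 46686000 to 46695999, held 6.

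**Figure D2:**
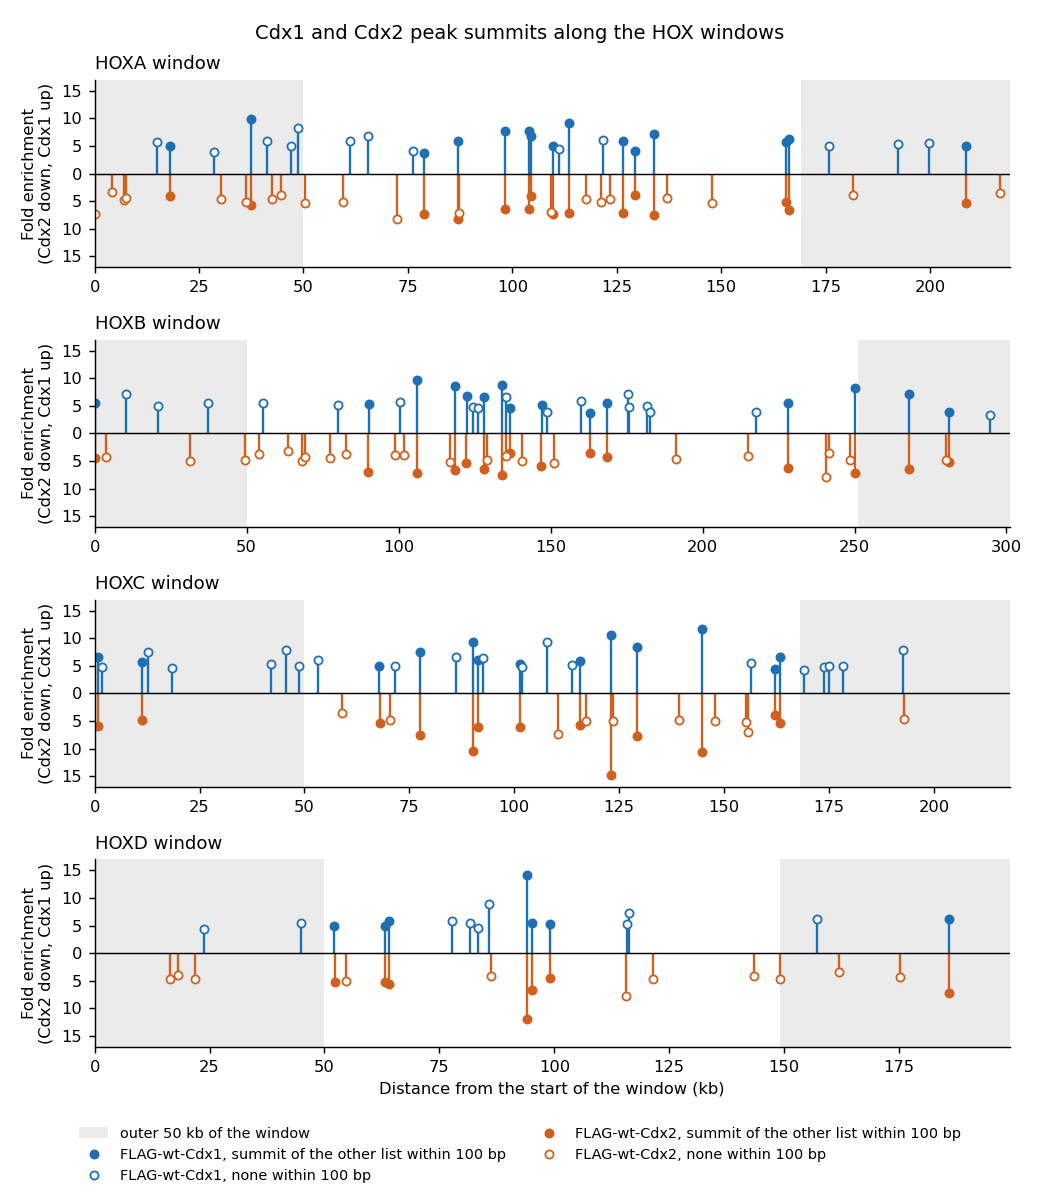
Summits along the 4 HOX windows, with distance from the window start in kb on the x axis and fold enrichment on the y axis, wt-Cdx1 (blue) drawn upward and wt-Cdx2 (orange) downward; filled circles have a summit of the other list within 100 bp, open circles do not, and grey marks the outer 50 kb. The tallest lines are shared ones in the inner part of HOXC and HOXD, with fold enrichment up to 14.8, and in every window the outer 50 kb held fewer summits per kb than the inner part.

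Peaks in the HOX windows were shared between the factors, meaning that a summit of the other list lay within 100 bp, more often than peaks of the lists as a whole. Across the 4 windows this held for 50 of 108 wt-Cdx1 peaks, 46.3% (37.2 to 55.7), where 29.2% of the whole wt-Cdx1 list was shared, and for 50 of 113 wt-Cdx2 peaks, 44.2% (35.4 to 53.4), where the whole wt-Cdx2 list had 26.3%. By cluster, 15 pairs lay in HOXA, 15 in HOXB, 13 in HOXC and 7 in HOXD. HOXA reached 53.6% (35.8 to 70.5) of wt-Cdx1 peaks against 30.6% on the rest of chromosome 7, and HOXC 56.5% (36.8 to 74.4) of wt-Cdx2 peaks against 25.8% on the rest of chromosome 12. For wt-Cdx2 in HOXA the share was 42.9% (28.0 to 59.1), against 26.0%. HOXB had 46.9% (30.9 to 63.6) for wt-Cdx1 and 40.5% (26.3 to 56.5) for wt-Cdx2, against 28.2% and 22.0% on the rest of chromosome 17. The HOXD shares, 43.8% (23.1 to 66.8) and 38.9% (20.3 to 61.4), had intervals that included those of chromosome 2, 31.2% and 28.4%. The shares of wt-Cdx1 peaks in HOXC, 40.6% (25.5 to 57.7), and the rest of chromosome 12, 28.6%, were also within counting error. The libraries came from the same cell line by the same protocol and without a control library, so binding by both factors and signal common to any library of these cells cannot be told apart.

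Summits of a pair lay a median of 28.5 bp apart, where the rest of the 4 chromosomes had 25 bp. By cluster the median was 19 bp in HOXA, 38 bp in HOXB, 34 bp in HOXC and 43 bp in HOXD. Of the 50 pairs, 24 were within 25 bp. In the inner part lay 12 of 15 pairs in HOXA, 12 of 15 in HOXB, 11 of 13 in HOXC and 6 of 7 in HOXD.

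Strong peaks, those with a −log10 q-value of at least 5, made up 68 of the 108 wt-Cdx1 peaks, 63.0% (53.6 to 71.5), against 52.2% of the whole list, and 49 of the 113 wt-Cdx2 peaks, 43.4% (34.6 to 52.6), against 29.0%. In HOXA 18 wt-Cdx1 and 16 wt-Cdx2 peaks were strong, in HOXB 20 and 15, in HOXC 19 and 13, and in HOXD 11 and 5. The 5 strong wt-Cdx2 peaks of HOXD were 27.8% (12.5 to 50.9) of its wt-Cdx2 peaks, where the rest of chromosome 2 had 32.0%. Of the strong HOX peaks, 37 of wt-Cdx1 and 35 of wt-Cdx2 were shared, 54.4% and 71.4%, against 38.2% and 46.2% of the strong peaks in the whole lists. Both peaks were strong in 32 of the 50 pairs. When only strong peaks of both lists were compared, 32 of the 68 strong wt-Cdx1 peaks, 47.1% (35.7 to 58.8), had a strong wt-Cdx2 summit near, against 21.9% in the whole list, and 32 of the 49 strong wt-Cdx2 peaks, 65.3% (51.3 to 77.1), a strong wt-Cdx1 summit, against 35.5%. By cluster the wt-Cdx1 share ran from 36.4% (15.2 to 64.6) in HOXD to 50.0% in HOXA and HOXB, and the wt-Cdx2 share from 56.3% (33.2 to 76.9) in HOXA to 80.0% (37.6 to 96.4) in HOXD, where it was 4 of 5 peaks.

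Peak heights in the windows were modest in number of fragments. Summit pileup, the number of fragments over the summit, ranged from 6 to 31 for wt-Cdx1 and from 5 to 38 for wt-Cdx2, with medians of 10.5 and 11, where the whole lists had 9 and 8. The median in HOXA was 11 in both lists, in HOXB 11.5 and 12, and in HOXC 10.5 and 11, against 9 and 8 on the rest of each of those chromosomes. HOXD had 10 and 8.5, against 10 and 8 on the rest of chromosome 2. Intervals of medians rank the peaks of a window, which are not replicates, and give no test against the rest. The 95% intervals of the wt-Cdx1 medians, 9 to 12 in HOXA, 9 to 14 in HOXB and 9 to 13 in HOXC, reached the 9 of the rest. Those of wt-Cdx2, 9 to 14, 9 to 15 and 9 to 13, stayed above 8. In HOXD both intervals included the value of the rest. Fold enrichment, the pileup over the local background of the same library with 1 added to both, was also compared. Its median was 5.82 and 5.21 in HOXA (5.40 and 4.72 on the rest of chromosome 7), 5.50 and 4.74 in HOXB (5.29 and 4.72), 5.78 and 5.41 in HOXC (5.34 and 4.72) and 5.56 and 4.72 in HOXD (5.29 and 4.73). Of these, only the wt-Cdx2 median in HOXC had a 95% interval, 4.98 to 7.03, that excluded the value of the rest. Of the HOX peaks, 16 of wt-Cdx1 (14.8%) and 33 of wt-Cdx2 (29.2%) were taller than at least 90% of their list, a mark that 8.67% and 7.62% of all peaks reached. By fold enrichment the numbers were 19 (17.6%) and 25 (22.1%), against 9.97% and 9.98% of all peaks.

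The local background itself was raised in the inner HOXB and HOXA parts, most of all in the wt-Cdx2 library. The peak caller took as background the larger of the mean over the genome, 0.798 fragments per base for wt-Cdx1 and 0.694 for wt-Cdx2, and the mean over the surrounding 10 kb, which includes the peak and its neighbours. At inner HOXB peaks the median local background was 3.06 times the genome mean for wt-Cdx2 and 1.66 times for wt-Cdx1. It was highest at the wt-Cdx2 summit 46692687, 3.84 fragments or 5.52 times the genome mean. At inner HOXA peaks it was 2.23 times for wt-Cdx2 and 1.39 times for wt-Cdx1, and in HOXC and HOXD the inner medians did not exceed 1.46 times in either library. In the outer HOXB part the medians were 1.29 and 1.00 times. Over the whole HOXC window the median was 1.49 times for wt-Cdx2 and 1.22 times for wt-Cdx1. Peaks on the rest of chromosome 12 had 1.08 and 1.17 times. For HOXD these medians were 1.17 and 1.13 times, against 1.12 and 1.25 times on the rest of chromosome 2. A background over 2 times the genome mean was found at 21 of 37 wt-Cdx2 peaks in HOXB and 14 of 35 in HOXA, against 8.49% and 4.92% of those on the rest of chromosomes 17 and 7, and for wt-Cdx1 at 7 of 32 in HOXB and at none of 28 in HOXA, against 2.60% and 2.99%. The part of this background in the peak counts, heights and sharing given here was not tested.

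**Figure D3:**
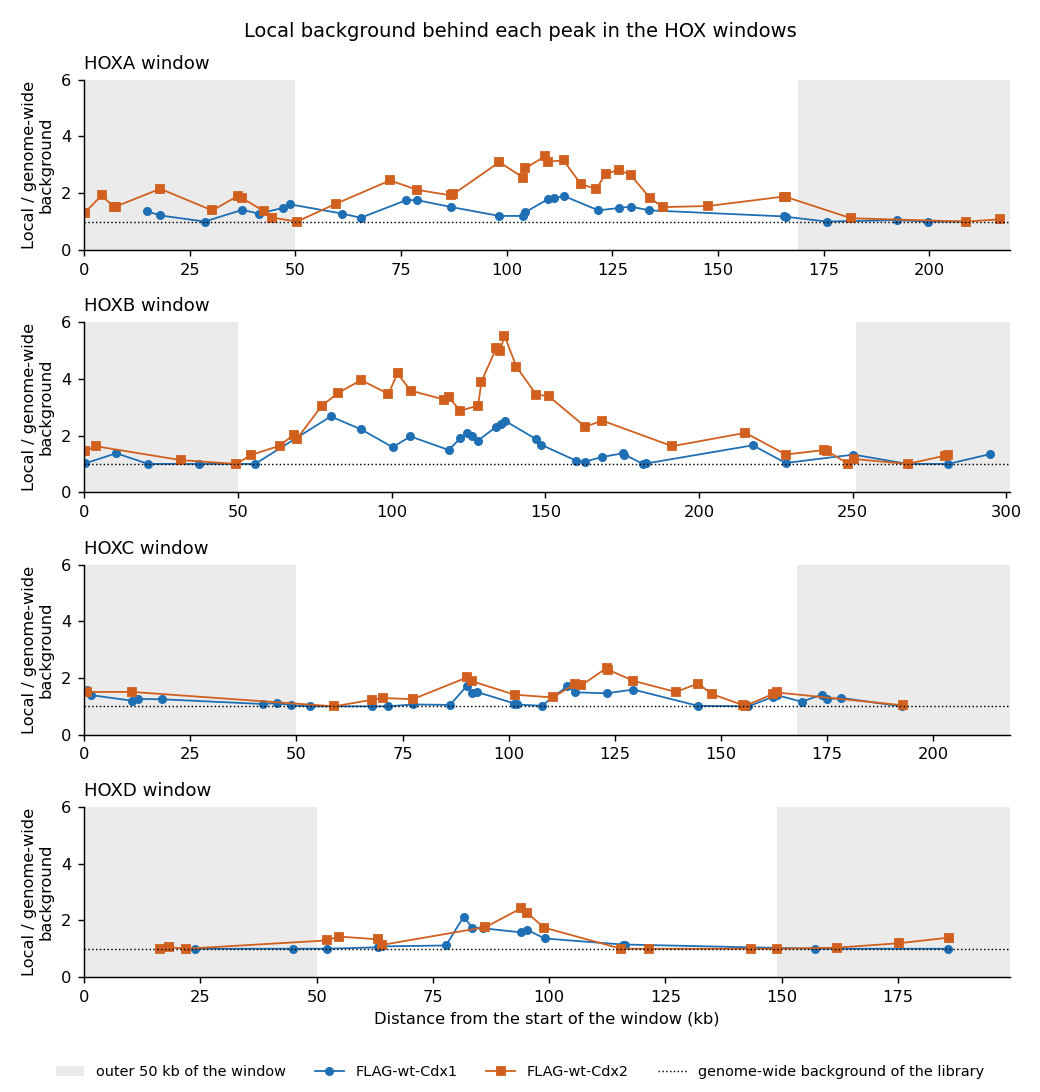
Local background at each peak, as a multiple of the genome mean of its library, against distance from the window start in kb; circles are wt-Cdx1 peaks, squares wt-Cdx2 peaks, the dotted line marks 1 and grey marks the outer 50 kb. The wt-Cdx2 line rises to 5.52 in the middle of HOXB and 3.31 in HOXA, while wt-Cdx1 stays at or below 2.68 in HOXB and 1.90 in HOXA.

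The strongest site of HOXD was shared between the factors. The wt-Cdx1 peak chr2:177000824-177001154 had 31 fragments (Poisson 95% interval 21.1 to 44.0) and a fold enrichment of 14.2 at summit 177001008, above 99.8% of the wt-Cdx1 list. The wt-Cdx2 peak chr2:177000821-177001167 had 31 fragments (21.1 to 44.0) and a fold enrichment of 11.9 at summit 177001004, above 99.4% of the wt-Cdx2 list. Their summits were 4 bp apart. Per 10000000 kept tags the heights were 18.8 and 22.5, a ratio of wt-Cdx2 to wt-Cdx1 of 1.19 (0.702 to 2.03). No other HOXD peak exceeded 20 fragments. The next wt-Cdx1 peak, chr2:176992378-176992838 (20 fragments, fold enrichment 8.84), had its nearest wt-Cdx2 summit 550 bp away, and the third, chr2:177023266-177023423, had 13 fragments and a fold enrichment of 7.30. The wt-Cdx2 peaks chr2:177022366-177022541 and chr2:177092788-177092949, with 12 and 13 fragments, had fold enrichments of 7.67 and 7.12. The other pairs with both peaks strong lay at 176971140 (10 wt-Cdx1 and 9 wt-Cdx2 fragments), 177002188 (12 and 16) and 177092848 (10 and 13), each named by its wt-Cdx1 summit.

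HOXC had the tallest wt-Cdx2 peak of all 4 windows. The peak chr12:54404993-54405188 had 38 wt-Cdx2 fragments (26.9 to 52.2), a fold enrichment of 14.8 and a place above 99.8% of the list. The wt-Cdx1 peak there, chr12:54405034-54405228, had its summit 60 bp away with 22 fragments (13.8 to 33.3) and a fold enrichment of 10.6. At 54426620 the order of fold enrichment was the other way, with 11.6 for the wt-Cdx1 peak chr12:54426524-54426745 (20 fragments) and 10.7 for the wt-Cdx2 peak chr12:54426507-54426737 (23 fragments), 7 bp apart. The third wt-Cdx2 peak, chr12:54372057-54372433 (24 fragments, fold enrichment 10.4), lay 5 bp from a wt-Cdx1 summit with 21 fragments. The third wt-Cdx1 peak, chr12:54389707-54389883 (16 fragments, fold enrichment 9.38), was not shared, its nearest wt-Cdx2 summit lying 2650 bp away. The remaining strong pairs had their wt-Cdx1 summits at 54282763 (14 wt-Cdx1 and 11 wt-Cdx2 fragments), 54359500 (13 and 13), 54373383 (12 and 13), 54397715 (12 and 12), 54411353 (18 and 17) and 54445201 (13 and 10). Of these sites only 54282763 lay in the outer part.

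In HOXB the tallest sites sat in the stretch of raised background. At 46690037 the wt-Cdx1 peak chr17:46689967-46690218 had 24 fragments (15.4 to 35.7) and the wt-Cdx2 peak chr17:46689961-46690176 had 33 (22.7 to 46.3), with fold enrichments of 8.78 and 7.50. The local background there was 2.31 and 5.09 times the genome mean. At 46662133 both peaks, chr17:46662068-46662237 and chr17:46662064-46662250, had 24 fragments, and fold enrichment was 9.72 for wt-Cdx1 and 7.17 for wt-Cdx2. The third wt-Cdx1 peak by fold enrichment, chr17:46674465-46674665 (18 fragments, 8.67), paired with a wt-Cdx2 peak of 21 fragments. The wt-Cdx2 peak of highest fold enrichment in HOXB, 7.87, was chr17:46796470-46796679 with only 15 fragments, away from the raised stretch and 9655 bp from the nearest wt-Cdx1 summit. The local background was 1.03 fragments there and 3.54 at the 33-fragment peak. The other strong pairs lay at 46646139 (14 wt-Cdx1 and 25 wt-Cdx2 fragments), 46678358 (16 and 15), 46684098 (15 and 19), 46703062 (12 and 19), 46784148 (9 and 11), 46806239 (16 and 12) and 46823875 (12 and 10).

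HOXA had no peak above 22 fragments, a height above 97.7% of the wt-Cdx1 list and 98.6% of the wt-Cdx2 list. At 27195471 both peaks had 22 fragments (13.8 to 33.3), and the wt-Cdx1 peak, chr7:27195358-27195578, had a fold enrichment of 9.13, where the wt-Cdx2 peak had 7.21. At 27119388, in the outer part, wt-Cdx1 had 20 fragments (chr7:27119307-27119475, fold enrichment 9.87) and wt-Cdx2 12 fragments (fold enrichment 5.74) within 4 bp. This was the lowest ratio of wt-Cdx2 to wt-Cdx1 among the 50 pairs. The third wt-Cdx1 peak, chr7:27130367-27130735 (18 fragments, 8.32), was not shared. Of the 3 wt-Cdx2 peaks of highest fold enrichment, chr7:27154273-27154437 (21 fragments, 8.15) was not shared, while chr7:27168750-27169001 (18 fragments, 8.14) and chr7:27215717-27215889 (16 fragments, 7.46) paired with wt-Cdx1 peaks of 12 and 14 fragments. The other strong pairs lay at 27180267 (14 wt-Cdx1 and 19 wt-Cdx2 fragments), 27185883 (14 and 17), 27208498 (12 and 20), 27247507 (10 and 11) and 27248199 (11 and 14).

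Set per 10000000 kept tags, wt-Cdx2 was higher than wt-Cdx1 at 45 of the 50 pairs, with a median ratio of 1.34 and a range of 0.716 to 2.54. The wt-Cdx2 library had fewer kept tags, so equal fragment numbers in both libraries gave a ratio of 1.19. Such pairs are among the 45, and the matching count on the rest of the chromosomes is not given here. At the 13362 pairs on the rest of the 4 chromosomes the median was 1.06, with quartiles of 0.836 and 1.36. The median was 1.45 in HOXA, 1.46 in HOXB, 1.19 in HOXC and 1.34 in HOXD. The local background moved the same way, being higher for wt-Cdx2, relative to each library's genome mean, at 47 of the 50 pairs with a median ratio of 1.37, against 1.00 on the rest of the chromosomes. On the rest the 95th percentile of this background ratio was 1.57, and the count to set beside 47 is not given. Fold enrichment, which divides by that background, was higher for wt-Cdx2 at 20 pairs and for wt-Cdx1 at 30, with a median ratio of 0.938, against 0.949 on the rest. The higher wt-Cdx2 pileup at HOX pairs was therefore not seen on the fold enrichment scale.

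At 4 of the 50 pairs, 8%, the counting interval of the ratio excluded 1, in each with wt-Cdx2 higher. On the rest of the 4 chromosomes it did so at 429 of 13362 pairs, 3.21%, of which 384 had wt-Cdx2 higher. These 4 were named after their values were seen, and no adjustment over the 50 intervals was made. They were the tallest HOXC site at 54405134, with a ratio of 2.06 (1.19 to 3.66), the HOXB site at 46646139, with 2.13 (1.07 to 4.44), and the HOXA sites at 27160795, with 8 and 17 fragments and a ratio of 2.54 (1.04 to 6.79), and at 27191774, with 11 and 22 fragments and a ratio of 2.39 (1.11 to 5.45).

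**Figure D4:**
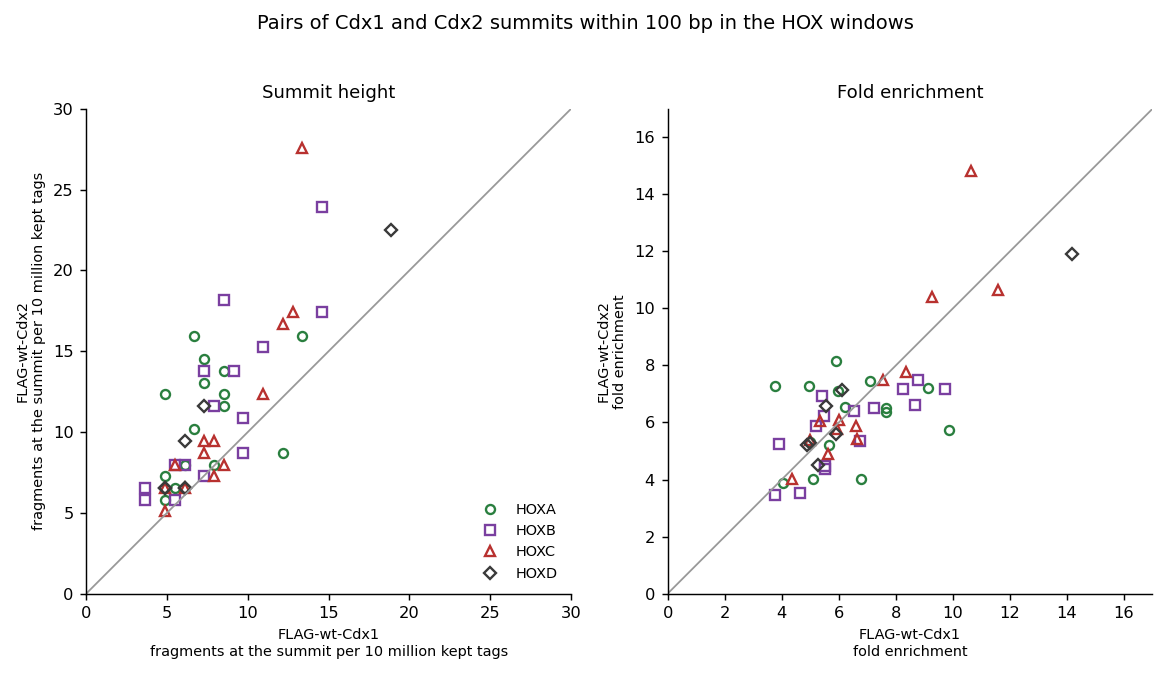
The 50 pairs of wt-Cdx1 and wt-Cdx2 summits within 100 bp, with wt-Cdx1 on the x axis and wt-Cdx2 on the y axis; left, summit height in fragments per 10000000 kept tags, right, fold enrichment, with symbols by HOX window and a line of equality. On the left 45 pairs lie above the line, and on the right 20 do.

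Shared peaks had the higher median fold enrichment in each window and list, although hardly so for wt-Cdx1 in HOXD. Over all 4 windows the median was 5.95 for shared and 5.40 for unshared wt-Cdx1 peaks, and 6.15 and 4.72 for wt-Cdx2 peaks, while the whole lists had 5.90 and 5.04 for wt-Cdx1 and 5.41 and 4.72 for wt-Cdx2. In HOXA the wt-Cdx2 medians were 6.50 and 4.73, and in HOXD the wt-Cdx1 medians were both 5.56 after rounding. All 5 wt-Cdx1 peaks of highest fold enrichment in HOXB were shared, and all 5 wt-Cdx2 peaks in HOXC, but only 2 of 5 wt-Cdx1 peaks in HOXD. Peaks at the window edges varied in height. The tallest was a wt-Cdx2 peak 3157 bp beyond the end of HOXA, with 18 fragments and a fold enrichment of 8.39. That was above the 8.15 of the highest wt-Cdx2 peak inside HOXA. The outermost peaks inside the windows, 16 over the 4 windows, 2 lists and 2 sides, had 5 to 14 fragments and fold enrichments of 3.37 to 7.79, and the nearest peaks outside had 7 to 18 fragments and 4.32 to 8.39.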

How the data were processed

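Peak lists of 1 ChIP-seq library per factor (FLAG-wt-Cdx1, FLAG-wt-Cdx2) were used. Per the submitters' processing notes, reads were handled with bcl2fastq 1.8.3, cutadapt 1.1 and Trimmomatic 0.32, and the build was GRCh37. The aligner is not given in the sources used here. For each factor on its own, the authors ran MACS 2.0.10.20131216 with no control at a q-value of 0.05, keeping 1 tag per position. The deposited lists hold the pileup signal (not scaled to depth), the fold enrichment ratio, and p-values and q-values on a −log10 scale for each peak. Tags numbered 17264704 and 14534643, of which 16452141 and 13781541 were kept, with fragments of 131 and 136 bp, and the lowest pileups called were 5 and 4.

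Windows were those given in the report. The local background was computed back from pileup and fold enrichment. Where it lay above the genome mean, it gave whole tags per 10 kb for 100% of peaks (tolerance 0.05 tags). Density was set against the rest of the same chromosome, from its lowest to its highest summit, with Poisson and exact conditional binomial intervals, and shares with Wilson intervals, all at 95%. Intervals of medians came from the ranked values, also at 95%. Peaks named were, per window and list, the 3 of highest fold enrichment, all pairs within 100 bp with both −log10 q at least 5, and the longest gap between neighbouring summits. Windows, members and lists were chosen with earlier results of these data known. Promoters were read from RefSeq tables of GRCh38.p14, while a GRCh37 genome or annotation was not used here. No positions were converted. Scripts, tested on simulated data, ran in Python 3.11.15 (scipy 1.17.1, pandas 2.3.3, numpy 2.4.6, matplotlib 3.10.9). Alternatives covered the q-value, window, sharing distance, comparison region, scaling, ranking and bin size.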

Additional observations from a re-analysis of the deposited data

How the results depend on the processing

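No paired analysis was possible because neither factor had replicates, and none could be left out. All alternatives were planned, and no density ratio with an interval above 1 lost that. With only peaks of −log10 q at least 5, the wt-Cdx2 density ratio was 3.22 in HOXA, 2.40 in HOXB and 2.60 (1.38 to 4.45) in HOXC, whose interval then excluded 1. Its median pileup was 17 in HOXA, 17 in HOXB and 13 in HOXD, its median fold enrichment 7.15, 6.41 and 7.12, and its shared percentage 66.7% in HOXB and 80.0% in HOXD. The choice of stronger peaks raises medians by construction. With windows shortened by 50 kb on each side, the wt-Cdx2 ratio in HOXC was 2.10 (1.28 to 3.25), since the flanks with few summits were gone. The shared percentage of wt-Cdx1 peaks was then 70.6% in HOXA and 57.9% in HOXC, and the wt-Cdx2 median pileup in HOXA was 15. For the values without a stated construction the cause was not tested. Per 10000000 kept tags, the median pileups were 6.69 and 7.98 in HOXA, 6.99 and 8.71 in HOXB, 6.38 and 7.98 in HOXC, and 6.08 and 6.17 in HOXD for wt-Cdx1 and wt-Cdx2. For wt-Cdx1 and wt-Cdx2, the HOXD density ratios were 0.990 and 0.961 against the 5 Mb on either side, 1.34 and 0.899 with strong peaks, and 1.53 and 1.39 with the shortened window, all with intervals that include 1. Sharing was between 27.0% and 50.0% with summits within 50 bp. Counts of 16 to 37 peaks per window limit every share and ratio, and fragment numbers under 40 limit every height.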
